A study of Homo sapiens with 9 samples.

Results

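Aphidicolin (APH), an inhibitor of the replicative DNA polymerases, left 517 replicated γH2AX binding sites that no other condition shared. A site was an autosomal peak of APH replicate 1 that overlapped a peak of APH replicate 2 by at least 1 bp and overlapped no peak of untreated cells or of cells treated with hydroxyurea (HU) or methyl methanesulfonate (MMS). The sites were 2.93% of the 17658 autosomal peaks of APH replicate 1, and the 8 lists together held 213253 autosomal peaks. They were chosen by the presence and absence of peaks in these 8 lists, so their absence from the other conditions is a property of the choice and not a result.

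The cells were an established human B-lymphocyte line, named GM07027 in the study's text and GM09027A in the sample labels, with 2 replicate libraries each for untreated cells and for 24 h of APH at 0.1 μg/mL, HU at 2 mM or MMS at 200 μM. HU depletes deoxynucleotides by inhibiting ribonucleotide reductase, and MMS alkylates DNA bases. All libraries came from the same line, DNA bound to γH2AX was precipitated with an antibody and sequenced, and each replicate was called against input. The lists held 4327 to 4779 autosomal peaks without treatment, 14009 and 17658 with APH, 69922 and 79891 with HU and 10465 and 12202 with MMS, and the sequencing depth behind them is unknown because a peak list carries no read numbers.

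γH2AX is histone H2AX phosphorylated by the kinases ATR and ATM around stalled replication forks and double-strand breaks. Common fragile sites (CFSs) are chromosome regions that form gaps and breaks in metaphase when replication is partially inhibited, classically by low doses of APH. Many of them lie in very large, late replicating genes, of which FHIT at FRA3B and WWOX at FRA16D are the best known, and both genes are often deleted in cancer.

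The windows below are from GRCh38, plus strand, and each is 300 bases around the middle of the stretch that was called in both APH replicates, which is given in capitals. They show the DNA that carries the strongest site in 4 of the 5 genes with the most sites, and 2 of the 3 sites with the highest mean fold enrichment overall. The window of PCNT, the other of these genes, touched an annotated untranslated region and is not shown.
WWOX, intron 8, chr16:78515832-78516131: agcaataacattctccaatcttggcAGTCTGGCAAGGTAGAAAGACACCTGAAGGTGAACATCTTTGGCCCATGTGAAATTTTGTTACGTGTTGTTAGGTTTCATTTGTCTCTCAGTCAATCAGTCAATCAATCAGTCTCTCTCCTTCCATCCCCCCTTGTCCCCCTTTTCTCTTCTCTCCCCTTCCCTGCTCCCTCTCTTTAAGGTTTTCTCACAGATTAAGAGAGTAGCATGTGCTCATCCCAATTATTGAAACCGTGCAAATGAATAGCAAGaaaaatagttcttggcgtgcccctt
FHIT, intron 5, chr3:60101623-60101922: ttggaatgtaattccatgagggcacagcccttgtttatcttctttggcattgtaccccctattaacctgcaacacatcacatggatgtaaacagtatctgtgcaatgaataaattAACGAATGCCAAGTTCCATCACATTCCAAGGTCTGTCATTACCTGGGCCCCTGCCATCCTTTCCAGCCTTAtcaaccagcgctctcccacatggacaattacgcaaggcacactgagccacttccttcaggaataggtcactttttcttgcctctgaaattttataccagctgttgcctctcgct
NXN, intron 5, chr17:816605-816904: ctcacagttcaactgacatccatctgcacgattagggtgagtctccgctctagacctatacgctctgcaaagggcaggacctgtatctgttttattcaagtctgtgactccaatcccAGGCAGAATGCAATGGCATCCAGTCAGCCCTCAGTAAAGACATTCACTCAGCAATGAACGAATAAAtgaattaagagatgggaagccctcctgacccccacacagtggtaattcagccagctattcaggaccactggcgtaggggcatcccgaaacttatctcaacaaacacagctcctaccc
PLEKHG4B, intron 2, chr5:128844-129143: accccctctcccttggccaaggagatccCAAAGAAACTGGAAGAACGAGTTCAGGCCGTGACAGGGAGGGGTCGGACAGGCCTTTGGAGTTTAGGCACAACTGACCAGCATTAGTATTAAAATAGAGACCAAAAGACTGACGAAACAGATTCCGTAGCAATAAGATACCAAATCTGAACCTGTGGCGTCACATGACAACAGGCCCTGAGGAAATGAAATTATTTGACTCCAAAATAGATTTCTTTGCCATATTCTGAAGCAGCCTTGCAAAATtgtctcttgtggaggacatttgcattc
Chromosome 2, in the long noncoding RNA gene LINC01250, chr2:2903439-2903738: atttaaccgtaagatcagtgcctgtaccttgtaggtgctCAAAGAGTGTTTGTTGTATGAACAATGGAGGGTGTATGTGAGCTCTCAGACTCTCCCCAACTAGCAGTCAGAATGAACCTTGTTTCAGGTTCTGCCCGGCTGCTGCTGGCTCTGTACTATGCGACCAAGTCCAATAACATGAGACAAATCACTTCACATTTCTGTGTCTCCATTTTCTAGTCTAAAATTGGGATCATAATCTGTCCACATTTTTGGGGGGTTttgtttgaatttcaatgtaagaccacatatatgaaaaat
MROH7, intron 1, chr1:54649593-54649892: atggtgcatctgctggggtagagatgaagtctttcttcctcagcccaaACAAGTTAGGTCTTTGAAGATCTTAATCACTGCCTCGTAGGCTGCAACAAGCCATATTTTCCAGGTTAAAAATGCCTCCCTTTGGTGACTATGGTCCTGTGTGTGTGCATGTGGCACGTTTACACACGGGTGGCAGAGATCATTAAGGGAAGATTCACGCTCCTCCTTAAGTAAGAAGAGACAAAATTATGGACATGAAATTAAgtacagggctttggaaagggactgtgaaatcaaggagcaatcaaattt
The shared stretch was 250 bases in WWOX, 71 in FHIT, 66 in NXN, 245 in PLEKHG4B, 222 in LINC01250 and 204 in MROH7. The GC content of the 6 windows ranged from 41.3 to 49.0%. The longest run of A or of T in any of them was 5 bases.

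Of the 17658 autosomal peaks of APH replicate 1, 1838 (10.4%) overlapped a peak of replicate 2. Among these 1838, 832 overlapped an HU peak, 747 an untreated peak and 540 an MMS peak, and 196 overlapped peaks of all 3 other conditions. The remaining 517, or 28.1% of the replicated sites, are the APH-alone sites. Just inside the limit for replication, sites on chromosomes 2, 19 and 18 shared 3, 4 and 5 bp with replicate 2, with fold enrichments of 2.64, 2.55 and 2.49 in replicate 1. Just outside it, peaks on chromosomes 3, 10 and 20 lay 2 bp from a replicate 2 peak, with fold enrichments of 2.5, 2.56 and 2.58. On the side of exclusion, a site on chromosome 1 lay 1 bp from a peak of another condition, and a replicated peak on chromosome 7 was left out for an overlap of 1 bp. The values on both sides of the limits were alike.

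The sites were narrow and weakly enriched. Their width ranged from 200 to 4287 bp, with a median of 630 bp, and the median overlap between the replicates was 279 bp. Fold enrichment over background, as the peak caller gave it, ranged from 2.21 to 3.46 in APH replicate 1 (median 2.58) and from 2.36 to 3.67 in replicate 2 (median 2.71). After correction for the number of positions tested, 2 sites had a q-value of at most 0.05 in replicate 1 and 3 in replicate 2, and 0 had it in both. A site thus rests on its recurrence in both libraries and not on the strength of either peak. The same held for the whole APH lists, in which 97 and 183 peaks reached that q-value.

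The 10 sites with the highest mean fold enrichment were spread over 7 chromosomes. The highest, with fold enrichments of 2.79 and 3.67 in replicates 1 and 2, was the site in LINC01250 shown above. The next was the site in intron 1 of MROH7, at 3.46 and 2.94. A site 112 kb from the far end of chromosome 8, in band 8q24.3, had 3.15 and 3.10. WWOX held 2 of the 10, both in intron 8, at 2.91 and 3.26 and at 2.69 and 3.31. The others lay in intron 2 of PLEKHG4B (3.10 and 3.03), in band 8q24.1 (2.87 and 3.21), in intron 1 of ARHGAP26 (3.39 and 2.60), at exon 22 of PCNT (2.92 and 3.03) and in intron 5 of NXN (3.14 and 2.80). The order depended on the replicate, with the MROH7 site first in replicate 1 and the LINC01250 site first in replicate 2.

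Every autosome held APH-alone sites, at a mean density of 0.188 per assembled Mb. Chromosome 16 was the densest, with 53 sites or 0.648 per Mb, and chromosome 4 the sparsest, with 10 sites or 0.0527 per Mb. Chromosome 17 followed with 43 sites, or 0.519 per Mb. Chromosome 3 held 41 sites, although its density of 0.207 per Mb was close to the mean. The 23 sites in WWOX were part of the 53 on chromosome 16, and the 17 in FHIT part of the 41 on chromosome 3. All APH peaks were also unevenly spread: chromosome 16 held 1196 peaks in replicate 1 and 756 in replicate 2, and chromosome 4 held 378 and 372, although chromosome 4 is the longer.

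**Figure D1:**
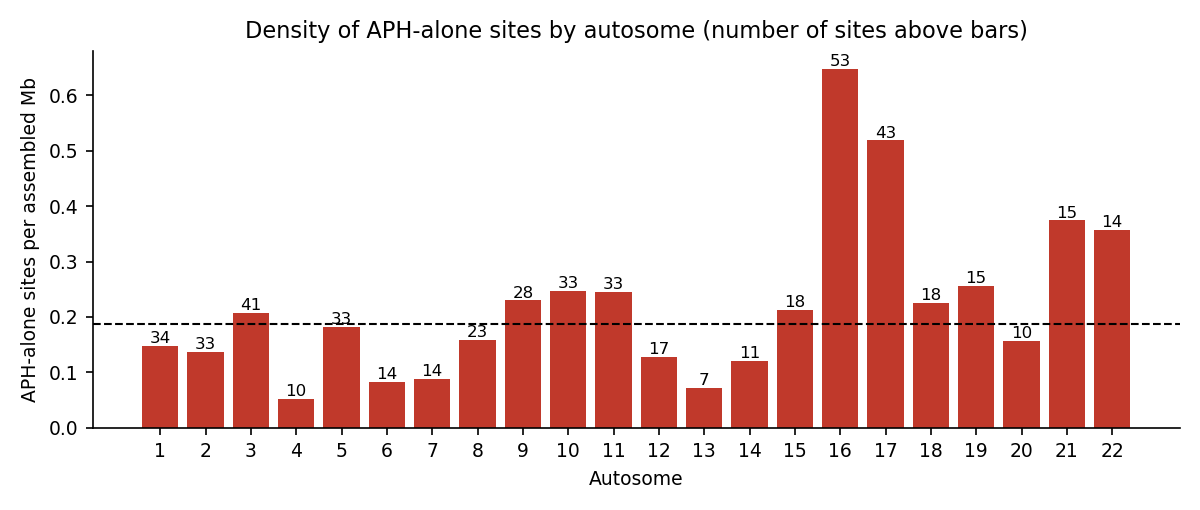
Density of APH-alone sites per assembled Mb (y axis) on each autosome (x axis), with the number of sites above each bar and the autosomal mean of 0.188 per Mb as a dashed line. Chromosomes 16 and 17 stood highest, at 0.648 and 0.519 per Mb, and chromosome 4 lowest, at 0.0527.

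Protein-coding genes held 324 of the 517 sites (62.7%, 95% Wilson interval 58.4 to 66.7%), against 43.9% of assembled autosomal bases. A further 50 sites lay in long noncoding RNA genes only, and 143 in neither kind of gene. The intervals given here and below cover counting error only, and because sites lie in clusters they are narrower than intervals over independent regions would be. The share was no mark of the APH-alone choice, since 62.1% of the 1321 replicated APH sites that were shared with another condition also lay in protein-coding genes. Of the 324 genic sites, 244 lay within introns of the canonical GENCODE transcript, 55 touched an exon, and 25 lay outside that transcript or in a gene that GENCODE names otherwise.

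The 324 sites fell in 226 protein-coding genes, which is 1.18% of the 19126 autosomal ones. Of these genes, 189 held 1 site and 23 held 2. WWOX held 23, FHIT 17, NXN 9, PCNT 7 and PLEKHG4B 6. TXNL4A, PARD6G, DIP2C, GRIK4 and ZFHX3 held 4 each, and ZNF268, EHMT1 and RALGPS1 held 3 each. All 4 sites of TXNL4A and 1 of ZFHX3 lay within the RefSeq span of the gene but outside its canonical GENCODE transcript. Also among the 20 genes with the most sites, DGAT2, ZNF605, SH3YL1, MCM3AP, GOLM1 and LOC124900629 held 2 each, the last being a RefSeq model that overlaps PLEKHG4B. By their length alone, an even spread of the 517 sites over the assembled autosomes would place 0.209 in WWOX, 0.282 in FHIT and 0.0338 in NXN.

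WWOX, which encodes an oxidoreductase with WW domains, spans 1113 kb of chromosome 16 (78099654 to 79212667). It held 160 peaks in APH replicate 1 and 53 in replicate 2. It held 5 and 1 without treatment, 0 and 0 with HU and 3 and 6 with MMS. The APH libraries did not overlap with the other 6, although the HU lists were the longest. Like the other genes named for their sites, WWOX was picked by peaks present with APH and absent elsewhere. Higher APH counts are thus partly built in, and the share of all genes with such a separation is not given here. As a share of each library's peaks, WWOX took 0.906% (0.777 to 1.06%) and 0.378% (0.289 to 0.494%) with APH and at most 0.105% in any other library. Of the peaks that formed no APH-alone site, 137 and 30 still lay in WWOX in the APH replicates.

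Within WWOX, 18 of the 23 sites lay in intron 8, which is 779 kb long and runs to the last exon. Introns 4 and 5 held 2 sites each and intron 6 held 1. Per 100 kb this was 2.31 sites in intron 8, 4.08 in intron 4, 2.64 in intron 6 and 0.899 in intron 5, the values for introns 4 and 6 resting on 2 sites and 1 site. The first site lay 17.2 kb and the last 949 kb from the transcription start, so the sites ran through most of the gene body. Intron 8 held 133 and 40 peaks in the APH replicates, 3 and 0 without treatment and 2 and 4 with MMS. Fold enrichment at the 23 sites ranged from 2.42 to 3.02 in replicate 1 (median 2.70) and from 2.44 to 3.31 in replicate 2 (median 2.73), within the range of the other sites. WWOX stood out by its number of sites. In strength they lay slightly above all 517 sites, whose medians were 2.58 and 2.71, and their median width was 752 bp against 630 bp.

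FHIT, which encodes a diadenosine triphosphate hydrolase, spans 1504 kb of chromosome 3 (59747277 to 61251452) and is read from the minus strand. It held 163 and 48 peaks with APH, 0 and 2 without treatment, 2 and 1 with HU and 5 and 4 with MMS. The lower APH library thus held 48 and the highest of the other 6 held 5. Of the 17 sites, 7 lay in intron 5 (523 kb), 7 in intron 4 (285 kb), 2 in intron 3 and 1 in intron 8. Intron 4 had the highest density, 2.46 sites per 100 kb, with 48 and 11 APH peaks, 1 peak in untreated replicate 2, 1 in MMS replicate 1 and 0 in the other 4 libraries. Fold enrichment at the 17 sites ranged from 2.47 to 3.03 in replicate 1 and from 2.51 to 3.07 in replicate 2.

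In both genes the replicates differed in number. The share of library peaks in FHIT was 0.923% (0.792 to 1.08%) in APH replicate 1 and 0.343% (0.259 to 0.454%) in replicate 2, and the intervals did not overlap. Of the 160 WWOX peaks of replicate 1, 24 (15.0%) overlapped a peak of replicate 2, and of the 163 FHIT peaks, 20 (12.3%) did, against 10.4% over all autosomes. Most APH peaks in these genes were thus seen in a single library at a given position, while the gene as a whole was dense in both. Dense peaks overlap more often by position alone, which the 15.0% and 12.3% do not take into account. Of the 24 and 20 replicated sites, 23 and 17 were APH-alone.

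**Figure D2:**
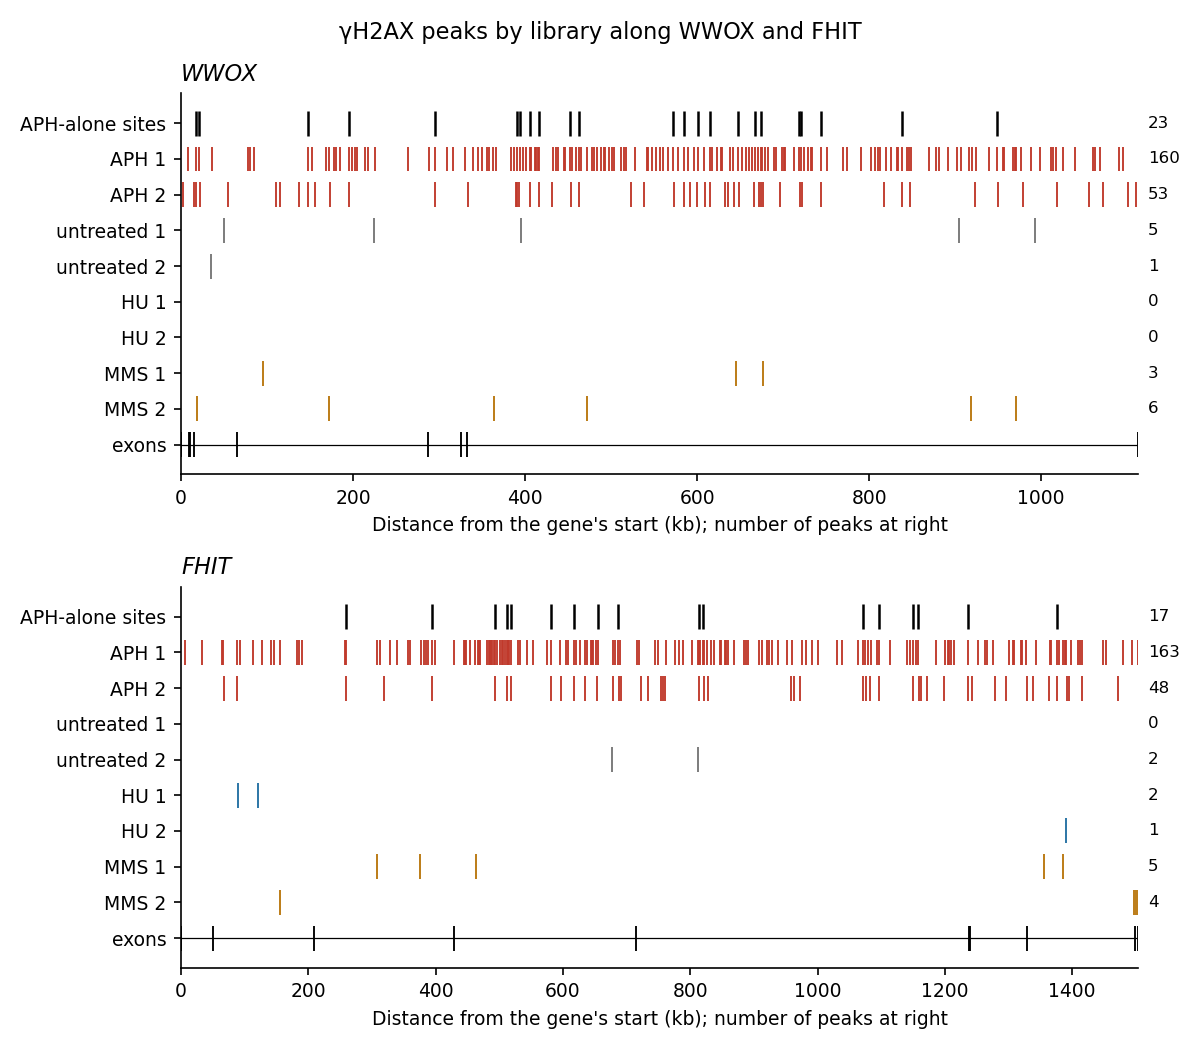
Position of each γH2AX peak along WWOX and FHIT, as distance in kb from the gene's start (x axis), for the APH-alone sites, the 8 libraries and the exons of the canonical transcript, with the number of peaks at the right. In both genes the 2 APH rows are dense, with 160 and 53 peaks in WWOX and 163 and 48 in FHIT, and the other 6 rows hold 0 to 6.

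Protein-coding genes over 300 kb held 111 of the 517 sites (21.5%, 18.1 to 25.2%), against 15.1% of assembled bases. Of the 739 such genes, 50 (6.77%) held a site, and 24 of the genes with a site were longer than 500 kb. The 1321 replicated APH sites that another condition shared had 3.10% (2.30 to 4.18%) in these genes. The shares in large genes were 17.3% (16.5 to 18.0%) and 15.7% (14.9 to 16.5%) among the unreplicated APH-alone peaks of replicates 1 and 2, 10.8% among 167 MMS-alone sites, 1.93% among 26005 HU-alone sites and 0 of 61 untreated-alone sites. These sets were built by the same rule from the same lists, so the shares are given without a test.

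WWOX and FHIT held 40 of these 111 sites. Without them, 14.9% of the other 477 sites lay in genes over 300 kb, close to the 15.1% of bases. Those 477 still included the 122 sites within 1 Mb of a chromosome end, of which 4 lay in such genes. Outside both the ends and that pair of genes, 67 of 355 sites (18.9%, 15.1 to 23.3%) did, against 15.3% of the bases away from the ends, a value inside the interval. Without the ends alone the share was 27.1% (22.9 to 31.7%). The share also depended on the length of the lists of the other conditions. With each of the other lists limited to its 4327 strongest peaks, the number in the shortest, 943 sites remained and 14.0% lay in genes over 300 kb, while WWOX then held 24.

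The genes that held a site had a median length of 113 kb, with quartiles at 38.9 and 259.7 kb, against 24.5 kb for all protein-coding genes. Long genes offer more bases, and 50% of all gene bases lay in genes over 171 kb, so the genes with a site were longer than a typical gene and shorter than those at a typical genic base. They ran from 8.21 kb to 1698 kb, the longest being NRXN3, and 36 of the 226 were shorter than the median of all genes. Counted once per site instead of once per gene, the median was 154 kb. So counted, it was 142 and 136 kb for the unreplicated APH-alone peaks of replicates 1 and 2. It was 97.8 kb for MMS-alone sites and 90.3 kb for the replicated APH sites shared with another condition. For HU-alone sites it was 46.7 kb and for untreated-alone sites 37.9 kb. The sets hit unlike numbers of genes, with 2813 and 2666 for the unreplicated peaks against 226. The corresponding medians per gene were 95.7 kb for MMS-alone sites, 76.2 and 88.7 kb for the unreplicated APH-alone peaks of replicates 1 and 2, 48.3 kb for the replicated APH sites shared with another condition, 45.9 kb for untreated-alone sites and 33.8 kb for HU-alone sites. The 95% interval of the 113 kb, 84.4 to 146.5 kb, held the value of the MMS-alone sites and that of the unreplicated peaks of replicate 2.

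**Figure D3:**
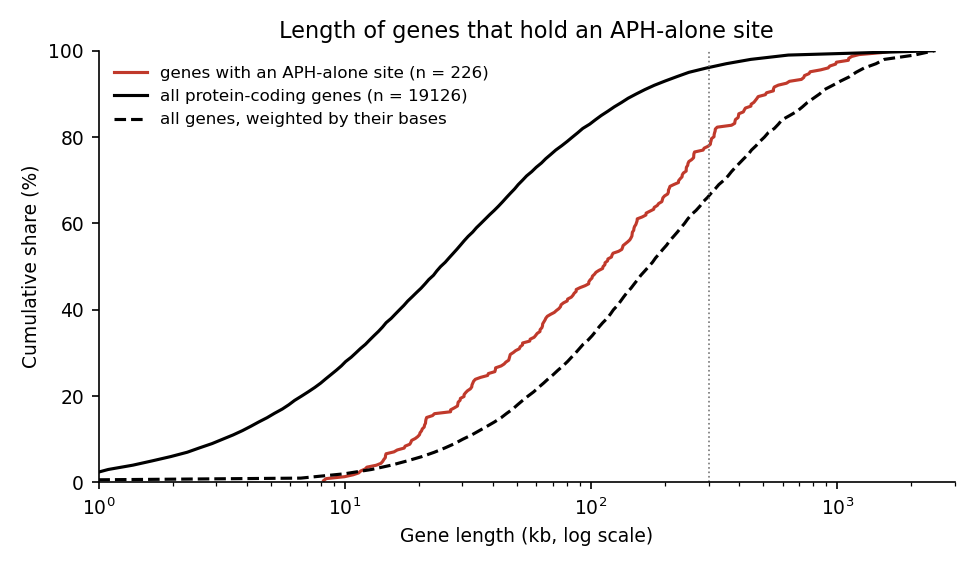
Cumulative share of genes (y axis) by gene length in kb on a log scale (x axis) for the 226 protein-coding genes with an APH-alone site, for all 19126 autosomal protein-coding genes, and for all genes weighted by their bases. The curve of genes with a site reaches its median at 113 kb, between the medians of all genes (24.5 kb) and of gene bases (171 kb), and the dotted line marks 300 kb.

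Whether the peaks that took no part in the sites were also placed in large genes was tested over libraries. With all APH-alone sites removed, 11.1 and 10.7% of APH peaks lay in genes over 300 kb, against 5.96 and 6.86% without treatment, 3.66 and 3.43% with HU and 9.51 and 10.9% with MMS. The means were 10.9% ± 0.296 (SD, n = 2) with APH and 6.72% ± 3.04 (SD, n = 6) in the other libraries. The difference of 4.15 percentage points gave p = 0.107 in the two-sided exact permutation test (0.214 after Benjamini-Hochberg adjustment over 2 tests), where 0.0357 is the smallest value possible. MMS replicate 2 lay above APH replicate 2, so the groups overlapped.

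CFS bands, taken as the cytogenetic bands of the study's list, held 168 of the 517 sites (32.5%, 28.6 to 36.6%), against 26.6% of assembled bases. The replicated APH sites shared with another condition had 22.6% (20.5 to 25%) in the bands. The unreplicated APH-alone peaks had 32.3% (31.3 to 33.2%) and 29.0% (28 to 30.1%), HU-alone sites 28.7%, MMS-alone sites 30.5% (24.1 to 37.9%) and untreated-alone sites 21.3% (12.9 to 33.1%). Without WWOX and FHIT, 26.8% of the other 477 sites lay in CFS bands, close to the share of bases. Those 477 still included the 122 sites within 1 Mb of a chromosome end, of which 19 lay in a CFS band.

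Of the 108 autosomal bands, 50 held a site and 8 held 5 or more. Bands 3p14.2 (FRA3B) and 16q23 (FRA16D) held 26 sites each, together 31.0% of the sites in bands. Next came 19q13 (FRA19A) with 10, 5q35 (FRA5G) with 9, 8q24.3 (FRA8D), 16q22 (FRA16C) and 11q13 (FRA11A) with 7 each, and 11p11.2 (FRA11L/FRA11M) with 5. Bands 19q13, 5q35 and 8q24.3 run to a chromosome end, and 4, 6 and 4 of their sites lay within 1 Mb of it. These bands also held 14, 36 and 28 replicated APH sites shared with another condition, against 4 in 3p14.2 and 8 in 16q23. Among bands with at least 5 sites, the density was highest in 3p14.2 at 5.0 per Mb, followed by 16q23 at 2.60 and 8q24.3 at 1.13, against 0.188 over the autosomes. Within 16q23, 23 of the 26 sites lay in WWOX, although the band held 300 and 274 HU peaks and WWOX none of them. Band 3p14.2 as a whole was poor in HU peaks, with 7 and 5, and held 230 and 90 peaks in the APH replicates.

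For CFS bands too, the remaining peaks were compared over libraries. Without the sites, 30.6 and 28.7% of APH peaks lay in the bands, against 27.5 and 27.0% without treatment, 29.1 and 29.0% with HU and 29.5 and 28.8% with MMS. The difference of 1.2 percentage points did not pass the two-sided exact permutation test (p = 0.25 before and after adjustment), and APH replicate 2 lay below both HU libraries.

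Sites were then counted over 3 gene lists, beginning with genes known from CFSs. All 27 genes of the list of large genes at CFSs are over 300 kb long, with a median of 1196 kb, and 4 of them (14.8%) held a site, against 6.77% of all genes over 300 kb. These 4 genes held 47 sites, where their list's total length of 35.3 Mb would give 6.62. Among them were WWOX with 23, FHIT with 17 and PTPRG with 2, and 23 listed genes held none. WWOX and FHIT thus held 40 of the 47, and the list was chosen with earlier results of these data known, so its count is no independent evidence on such genes. PTPRG, a receptor tyrosine phosphatase gene next to FHIT, had 18 and 8 with APH, 0 and 0 with HU, 2 and 0 with MMS and 0 and 1 without treatment.

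Of 25 neuronal adhesion and synapse genes, all over 300 kb and with a median of 1118 kb, 2 (8%) held a site. Of all genes over 300 kb, 6.77% did. The 2 genes held 3 sites in all, where the length of the list would give 5.80. They were NRXN3, which encodes a presynaptic adhesion protein and had 2 sites, and CTNND2, which encodes a catenin and had 1. NRXN3 had 12 and 8 peaks with APH, 1 and 0 without treatment, 0 and 1 with HU and 3 and 6 with MMS. Of 38 B-lymphocyte genes, 0 held a site, against 1.18% of all protein-coding genes, with 1.56 sites expected from their length. The shares of genes with a site in both lists were near those over all such genes, and neither is read as a depletion. Together the B-lymphocyte genes had 85 and 90 peaks with APH, 61 and 66 without treatment, 240 and 207 with HU and 100 and 110 with MMS. These counts are not scaled to the lists, of which the HU lists were the longest.

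The sites were unevenly spaced. Of 517, 199 (38.5%, 34.4 to 42.8%) lay within 100 kb of another site, in 58 clusters, while 318 stood alone. The median gap between neighbours was 928 kb, against 5331 kb for an even spacing, and 41 of the 495 gaps were under 10 kb. The 12 clusters with 5 or more sites held 95 sites (18.4%). Of these 12, 4 lay in WWOX or FHIT and the other 8 within 1 Mb of a chromosome end.

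The 10 clusters with the most sites held 85 sites in all. The largest had 11 sites over 268 kb of WWOX, followed by 10 sites over 179.9 kb at the far end of chromosome 21, in PCNT, MCM3AP and YBEY, and 10 sites over 267 kb at the start of chromosome 2, where SH3YL1 lies. Clusters of 9 sites spanned 124 kb of NXN on chromosome 17, 173 kb around PLEKHG4B on chromosome 5 and 316 kb of WWOX. A cluster of 8 sites spanned 295 kb of FHIT and a cluster of 7 sites 160.1 kb at the far end of chromosome 15, at TARS3. The last of the 10 were clusters of 6 sites at the far ends of chromosome 12, over 69.5 kb at ZNF10, ZNF268 and ANHX, and of chromosome 18, over 101.5 kb at TXNL4A.

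Chromosome ends were the other place where the sites gathered. The outer 1 Mb of the chromosomes, which is 1.35% of assembled bases, held 122 of the 517 sites (23.6%, 20.1 to 27.4%), and the outer 5 Mb, 7.0% of bases, held 159 (30.8%). Of the 122, 4 lay in a gene over 300 kb and 19 in a CFS band, so this group and the large genes were nearly separate. The distance to the chromosome end was measured after the clusters had been seen. Sites were found at 24 of 44 ends, and the 14 ends with 3 or more held 108 of them. The starts of chromosomes 13, 14, 15, 21 and 22 held 0 peaks in all 8 libraries, so these ends could not hold a site. The far end of chromosome 21 held 12, the start of chromosomes 2 and 17 and the far end of chromosome 18 held 11 each, and the start of chromosome 5 held 10.

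The ends were also rich in APH sites that other conditions shared. Of the 1321 replicated APH sites shared with another condition, 49.5% (46.8 to 52.2%) lay in the outer 1 Mb, against 4.69% and 4.63% of the unreplicated APH-alone peaks of replicates 1 and 2. Of the 776 replicated APH sites there, 122 (15.7%, 13.3 to 18.5%) were APH-alone, against 28.1% over all autosomes. In WWOX or FHIT, 40 of the 44 replicated sites were APH-alone. These shares follow from the rule that chose the sites, and that pair of genes was picked for its number of sites, so they are a description only. Of 61 untreated-alone sites, 21.3% lay in the outer 1 Mb, and of 26005 HU-alone sites, 0.927% did.

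**Figure D4:**
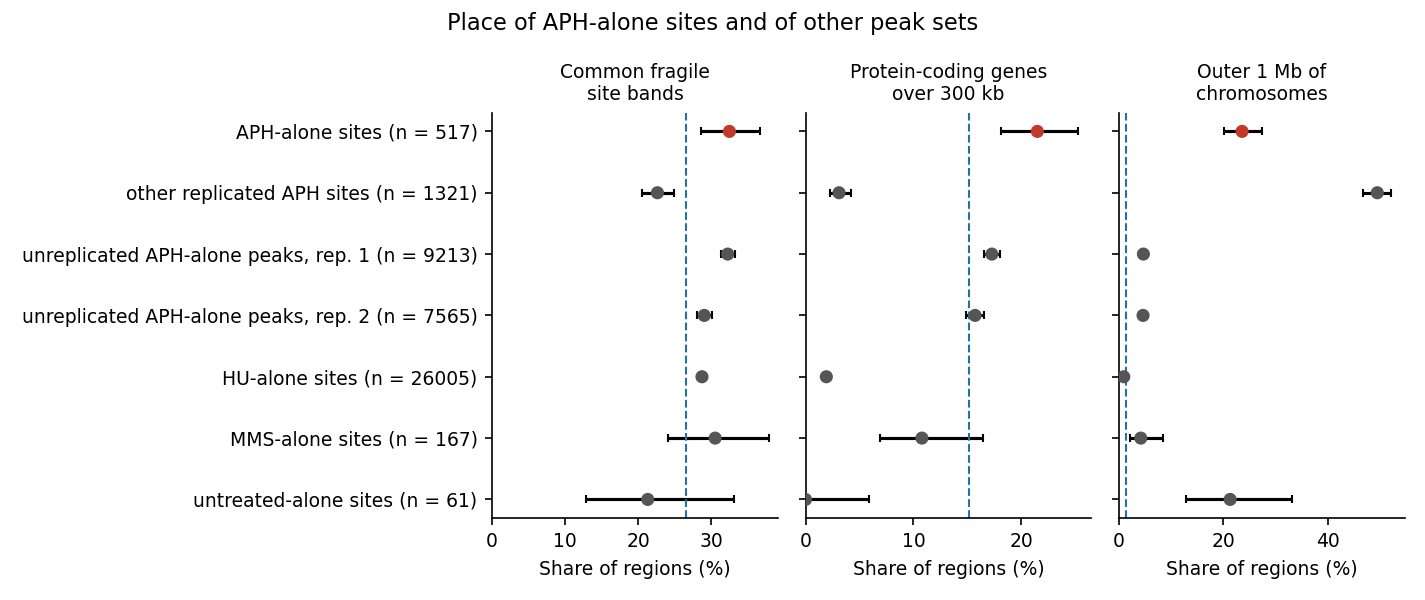
Share of regions in % (x axes) in CFS bands, in protein-coding genes over 300 kb and in the outer 1 Mb of chromosomes, for the APH-alone sites (red) and 6 other sets of peaks, with 95% Wilson intervals as bars and the share of assembled bases as dashed lines. The APH-alone sites stand highest for large genes, at 21.5%, while at chromosome ends the other replicated APH sites stand higher, at 49.5% against 23.6%.

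NXN, which encodes the thioredoxin-like protein nucleoredoxin, lies in the first Mb of chromosome 17 (799310 to 979776, 180.5 kb). It held 49 and 48 peaks with APH and 40 and 28 without treatment. It held 0 and 0 with HU and 11 and 3 with MMS. Relative to the length of each list this was 0.277 and 0.343% of APH peaks and 0.837 and 0.647% of untreated peaks. The 9 APH-alone sites of NXN, 6 of them in intron 1, thus lay among untreated peaks that fell between them, and both untreated libraries held fewer peaks there than either APH library.

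PCNT, the gene of the centrosome scaffold protein pericentrin, lies at the far end of chromosome 21 (46324156 to 46445769, 122 kb) and had 30 and 24 peaks with APH, 19 and 12 without treatment, 3 and 4 with HU and 13 and 8 with MMS. PLEKHG4B, the gene of a guanine nucleotide exchange factor on chromosome 5 (92168 to 189966, 97.8 kb), had 29 and 25 with APH, 20 and 19 without treatment, 0 and 3 with HU and 4 and 3 with MMS. In both genes the APH libraries had the highest counts. In PLEKHG4B the untreated libraries came next, while in PCNT untreated replicate 2 lay just below MMS replicate 1. Relative to the length of each list, the untreated libraries stood above the APH libraries. PCNT took 0.170 and 0.171% of APH peaks and 0.398 and 0.277% of untreated peaks. PLEKHG4B took 0.164 and 0.178% of APH peaks and 0.418 and 0.439% of untreated peaks. The counts that follow are not scaled to the lists, of which the untreated lists were the shortest. PARD6G, the gene of a cell polarity protein at the far end of chromosome 18, followed with 21 and 22 peaks with APH and 17 and 20 without treatment. Other genes near the ends differed in their untreated peaks. VPS53 at the start of chromosome 17 had 43 and 45 with APH and 40 and 38 without treatment. TBCD at the far end of chromosome 17 had 31 and 35 with APH and 44 and 41 without treatment. Both were named after their values were seen. DIP2C at the start of chromosome 10 had 30 and 24 with APH, 5 and 6 without treatment, 0 and 0 with HU and 4 and 1 with MMS, and TXNL4A, a spliceosome gene at the far end of chromosome 18, had 9 and 10 with APH and 2 and 3 without treatment. At the far end of chromosome 9 lie CACNA1B, a calcium channel gene, and EHMT1, a histone methyltransferase gene, both named after their values were seen. CACNA1B had 22 and 12 peaks with APH and 5 and 2 without treatment. EHMT1 had 4 and 7 with APH, 1 and 0 without treatment, 8 and 9 with HU and 12 and 7 with MMS, so there the APH libraries were not the highest.

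**Figure D5:**
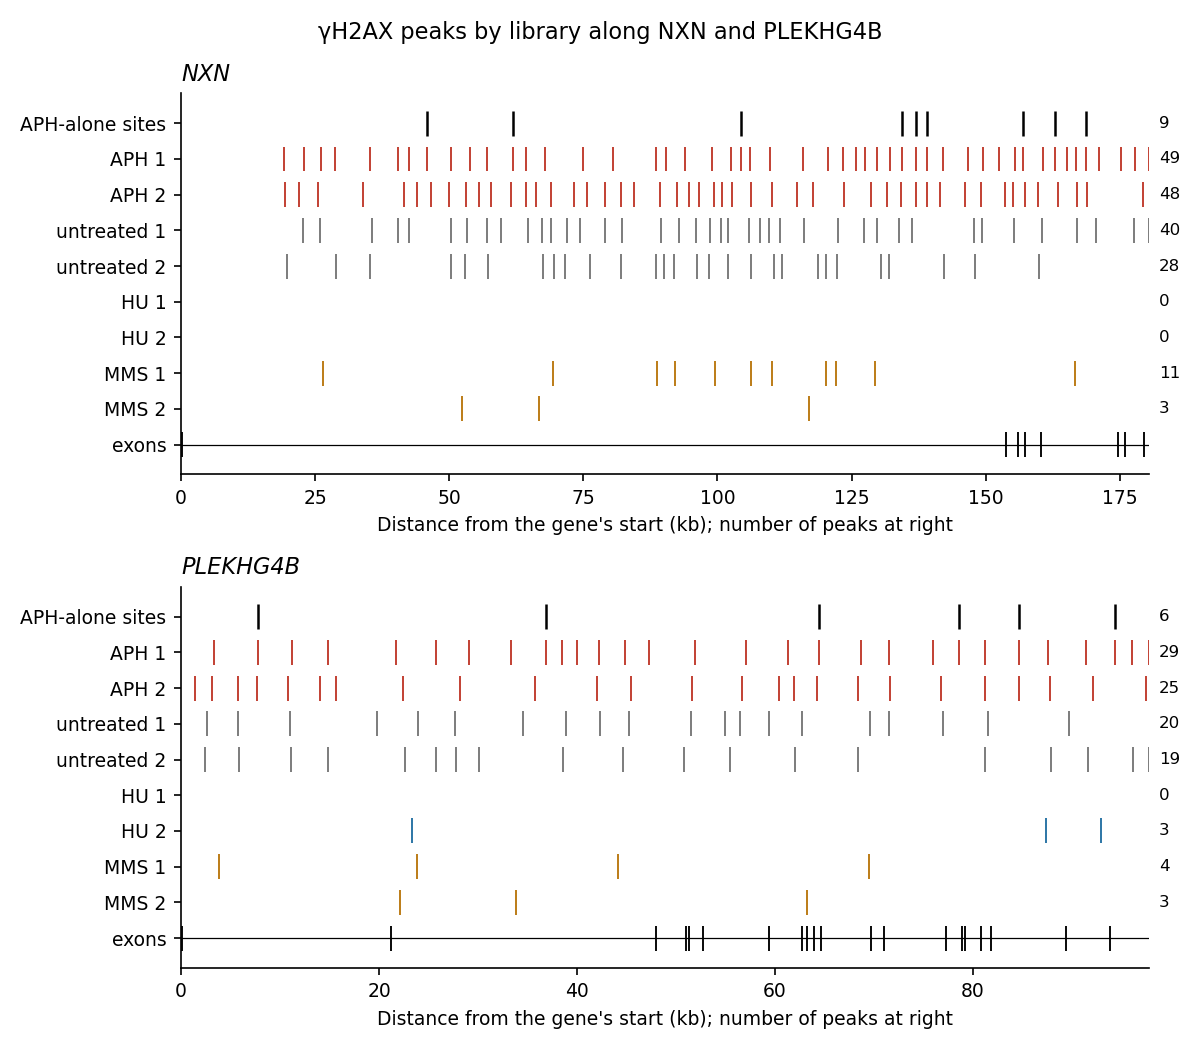
Position of each γH2AX peak along NXN and PLEKHG4B, genes near chromosome ends, as distance in kb from the gene's start (x axis), for the APH-alone sites, the 8 libraries and the exons of the canonical transcript, with the number of peaks at the right. The untreated rows, with 40 and 28 peaks in NXN and 20 and 19 in PLEKHG4B, are filled along the same stretch as the APH rows, unlike the rows of WWOX and FHIT.

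Peaks of other conditions lay close to most sites. The nearest peak of any of the 6 other libraries was at a median of 3.19 kb, and 378 of the 517 sites (73.1%) had one within 10 kb. For the 9213 unreplicated APH-alone peaks of replicate 1 the median was 6.24 kb, and 59.1% had one within 10 kb. In the outer 1 Mb the median was 1.48 kb and 114 of 122 sites had such a neighbour, 98 of them from untreated cells. In WWOX and FHIT the median was 26.6 kb, and 12 of 40 had a neighbour within 10 kb. For these 40 sites the nearest HU peak lay at a median of 472 kb and 0 of 40 had an HU peak within 10 kb, whereas 244 of all 517 did. Requiring that no peak of another condition lie within 10 kb left 139 sites, of which 50.4% lay in CFS bands, 36.7% in genes over 300 kb, 15 in WWOX and 5.76% in the outer 1 Mb.

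Outside these places, 355 sites lay neither in the outer 1 Mb nor in WWOX or FHIT. They were scattered, with 18.0% within 100 kb of another of them, against 92.5% of the 40 sites in WWOX or FHIT and 80.3% of the 122 at chromosome ends. Among the genes there, GRIK4, which encodes a kainate receptor subunit, had 4 sites and 23 and 12 peaks with APH, but also 21 and 19 with HU. ZFHX3, a homeobox transcription factor gene in band 16q22, had 4 sites and 31 and 20 peaks with APH, 1 and 1 without treatment, 2 and 3 with HU and 10 and 8 with MMS. RALGPS1, the gene of a Ral exchange factor, had 3 sites, with 21 and 13 peaks with APH and 9 and 11 with HU. In ZFHX3, as in WWOX, both APH libraries lay above all others, while in GRIK4 the groups overlapped. These genes too were picked for their sites, so this is a description only.

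In sequence the sites were richer in G and C than the genome. Their median GC content was 47.2%, and 47.4% in 500 bp around the midpoint, against a median of 40% over 500 bp autosomal windows. The unreplicated APH-alone peaks of replicate 1 (46.9%) and the replicated APH sites shared with another condition (47.2%) had nearly the same value. The sites in FHIT were the exception at 40.7%, and those in WWOX had 45.4%. A run of at least 12 A or 12 T, counted on the plus strand, occurred in 25 of the 517 windows of 500 bp (4.84%, 3.30 to 7.04%), against 10.7% of autosomal windows, 5.54% and 5.62% of the unreplicated APH-alone peaks and 14.19% of HU-alone sites.

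Both replicates and the exclusion lists set how many sites were found. Without APH replicate 1 or 2, so that replication was not asked for, 8089 and 9730 peaks met the rest of the rule and 5.91 and 5.69% lay in the outer 1 Mb. With an overlap of at least 50% of both APH peaks, 154 sites remained, 7 of them in WWOX, and 22.7% lay within 100 kb of another.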

How the data were processed

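Per the labels and the study's methods, the authors aligned ChIP-seq reads to hg38 (GRCh38) with Bowtie2, handled them with SAMtools, and ran MACS2 in its broad mode, with a p-value limit, for every replicate separately with the input as control. The versions of these tools are not given in the sources used here, and the input sample was not used here. The 8 deposited lists give each peak's position, a score that was not used, its fold enrichment (a ratio), and −log10 of its p-value and of its q-value, as the authors' peak caller wrote them. They hold no read counts and no region below the limit, so depth is unknown. The study describes the replicates as biological.

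Peaks on the 22 autosomes were used, and 7 to 59 peaks per list on other sequences were left out. No peak or band ended beyond its GRCh38 chromosome. Overlap meant at least 1 bp. Gene spans came from RefSeq (GRCh38.p14), exons and introns from canonical transcripts of GENCODE release 44, and CFS bands from the study's supplementary band list. Clusters joined sites under 100 kb apart. Shares carry 95% Wilson intervals. Sets were compared as descriptions, because the sites were chosen from the same lists. The 2 tests were two-sided exact permutations of library values, APH against the other 6, adjusted by Benjamini-Hochberg. The overlap and distance steps and the site rule were checked on simulated lists, and the permutation on a made-up set of library values. The text names the 20 genes with the most sites, except 1 that is not reported here, listed genes with at least 2, the 10 strongest sites, the 10 largest clusters with their genes, the 8 bands with the most sites and the 3 densest with at least 5. CTNND2 was named after its value was seen. The members and lists were chosen with earlier results of these data known. Distances to chromosome ends, and settings without WWOX and FHIT or without the outer 1 Mb, were added after the data were seen. Python 3.11.15, numpy 2.4.6, pandas 2.3.3, scipy 1.17.1 and pysam 0.24.0 were used.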

Additional observations from a re-analysis of the deposited data

How the results depend on the processing

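Of the 179 comparisons of a result with an alternative setting, 124 stayed within the interval of the reported value, within 1.5 times it for counts, or on the same side of 0.05 for tests. Among these are some test settings that could not have given a p-value below 0.05. A fold enrichment of at least 3 in both APH replicates left 2 sites, of which 50% lay in CFS bands and 50% in protein-coding genes, 0% in genes over 300 kb, 0% within 100 kb of each other and 100% in the outer 1 Mb, with a median GC content of 40.4% and at most 1 site in a gene, so that no pattern can be read at this threshold. An overlap of at least 50% of both peaks gave 154 sites, 7 in WWOX and 22.7% near another site. With no peak of another condition within 10 kb, there were 139 sites, 50.4% in CFS bands, 36.7% in genes over 300 kb, 15 in WWOX, 30.2% near another site, 5.76% in the outer 1 Mb, a median gene length of 209 kb and a GC content of 46.5%. With none within 1 kb, 25.5% lay in genes over 300 kb and the median gene length was 147 kb. Exclusion by the stronger 50% of the other lists gave 17.5% in genes over 300 kb and 44.1% near another site, and exclusion by equal numbers of the strongest peaks gave 943 sites, 14.0% in genes over 300 kb, a median length of 66.4 kb and 17.3% in the outer 1 Mb.

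The share in genes over 300 kb was 17.8% without WWOX, 14.9% without WWOX and FHIT, 27.1% without the outer 1 Mb, 18.9% without all of these and 13.9% with a limit of 500 kb. The share in CFS bands was 26.8% without WWOX and FHIT and 37.7% without the outer 1 Mb. The share near another site was 34.0% and 25.6% under these settings, 32.7% at 50 kb and 46.6% at 250 kb. Counted once per site, the median gene length was 154 kb. Left out in turn, the replicates gave 550 to 9730 sites, 29.3 to 32.8% in CFS bands, 55.4 to 63.7% in protein-coding genes, 16.1 to 20.9% in genes over 300 kb, median lengths of 74.8 to 111 kb, 37.4 to 77.9% near another site, a GC content of 45.5 to 47.4%, 23 to 155 sites in the leading gene and 5.69 to 31.4% in the outer 1 Mb, where 31.4% was the value without untreated replicate 1. The leading gene was WWOX in all of these settings except without APH replicate 2, where it was FHIT, and among the 2 sites of high fold enrichment. The cause of these changes was not tested.

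For the library tests, no alternative changed the call or the direction. Pairing by replicate number, or leaving out an APH replicate, allowed no p-value below 0.05, so the call was fixed in these settings. The differences ranged from 0.240 to 2.15 percentage points for CFS bands and from 3.49 to 4.98 for genes over 300 kb with a replicate left out. Pairing by replicate number (a replicate block) gave exact permutation p = 0.25 for a difference of 1.2 and p = 0.188 for one of 4.15 percentage points. The unknown depth limits all statements on absence of peaks.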
